A study of Homo sapiens with 42 samples.

Results

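HEK293T cells, a transformed human embryonic kidney line, received siE4, a small interfering RNA (siRNA) directed at POLR3GL, and were set against cells that received a control siRNA, both at 25 nM for 48 h. The comparison takes the 3 libraries labelled siE4 and the 3 labelled as the control of the POLR3GL siRNAs, 6 of the 42 libraries in the series. The same experiment holds siE6 and siE8, a further pair of siRNAs to POLR3GL at the same dose and time with 3 libraries each, and these served as the measure of what differs between siRNAs to 1 gene. The study asks what happens to protein-coding transcripts when RNA polymerase III (Pol III) is inhibited. All groups were transfected with a lipid reagent, and polyadenylated RNA was sequenced. The labels give no knockdown at the protein level and do not say whether replicates came from separate cultures.

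Pol III makes tRNAs, 5S ribosomal RNA and other short noncoding RNAs. Its RPC7 subunit exists in 2 forms encoded by the paralogs POLR3G and POLR3GL, of which POLR3G is typical of stem and tumour cells and POLR3GL of most adult tissues. An siRNA guides the Argonaute machinery to transcripts that pair with it along its whole length, and its seed, a short stretch near the 5′ end, can also pair with sites in 3′ untranslated regions (UTRs) of other transcripts, as a microRNA does.

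The 6 libraries held 39988510 to 46023990 estimated reads. Libraries of 1 group correlated at 0.990 or more with each other and at 0.962 or less with any library of another group, and the first 2 principal components over the 12 libraries (37.1% and 33.6% of variance) separated the 4 groups. Of 14 markers of HEK293T, 12 were at 1 CPM or more in siE4 libraries (CPM, counts scaled to library size and composition, or for marker sums to the reads assigned to genes), with PAX8 under 1 CPM in every library. Their summed level was 1796 to 1835 CPM in siE4 and 2265 to 2489 CPM in control libraries. Of 16 THP-1 and monocyte markers 13 were under 1 CPM in all 12 libraries and AIF1 was at 0. The 10 fibroblast markers summed to 26.5 to 31.0 CPM in siE4 and 60.5 to 67.0 CPM in control libraries, with COL1A2, FAP and THY1 under 1 CPM throughout. The part of these marker differences in the results was not tested, and in bulk RNA fewer cells of a type and less RNA per cell cannot be told apart.

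POLR3GL fell about as far with siE4 as with the other siRNAs. In the control libraries POLR3GL (ENSG00000121851) was at 32.6, 36.4 and 33.4 CPM, and in the siE4 libraries at 3.37, 2.88 and 2.43 CPM. The groups did not overlap, and the mean fell from 34.1 ± 2.00 to 2.89 ± 0.472 CPM (SD, n = 3), 11.8-fold (log2 -3.56 ± 0.13 SE, edgeR adjusted p = 1.76e-12). Set directly against siE6, POLR3GL was at log2 -0.22 (adjusted p = 0.168), and against siE8 at 0.14 (adjusted p = 0.385), so neither difference passed the test. At the level of transcripts, where 14.2% of 62681 tested were called, POLR3GL-202 fell from 30.7 ± 2.53 to 2.31 ± 0.371 CPM (log2 -3.73 ± 0.17, adjusted p = 7.31e-07). POLR3GL-201, the other protein-coding form, went from 2.45 ± 0.319 to 0.0867 ± 0.150 CPM without passing the test (adjusted p = 0.0782). The retained-intron forms POLR3GL-203 and POLR3GL-204 did not pass either (adjusted p = 0.191 and 0.162).

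The paralog POLR3G fell as well. Control libraries held 29.6, 31.4 and 33.7 CPM, and siE4 libraries 19.0, 15.9 and 17.8 CPM, with no overlap. The fall was 1.80-fold (log2 -0.84 ± 0.077, adjusted p = 8.35e-08), and among its transcripts POLR3G-204 passed the test, going from 27.8 ± 3.199 to 14.02 ± 0.494 CPM (log2 -0.98 ± 0.096, adjusted p = 7.91e-05). POLR3G-201 was at log2 0.26 ± 0.49 and did not pass (adjusted p = 0.835). Against the shared controls POLR3G also fell with siE6 (log2 -0.56) and siE8 (log2 -0.93). POLR3G was lower with siE4 than with siE6 (log2 -0.28, adjusted p = 0.00428), while the difference from siE8 was 0.086 (adjusted p = 0.361). MAF1, which represses Pol III, was at 57.2, 67.8 and 60.9 CPM in control and 56.9, 52.7 and 54.7 CPM in siE4 libraries, where every siE4 library lay below every control library by little. Its fall of 1.13-fold (log2 -0.18 ± 0.056, adjusted p = 0.0134) was not called without siE4 replicate 2 (adjusted p = 0.0668) or without control replicate 2 (adjusted p = 0.0909). The plot of the targets by library shows these values with those of siE6 and siE8.

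**Figure D1:**
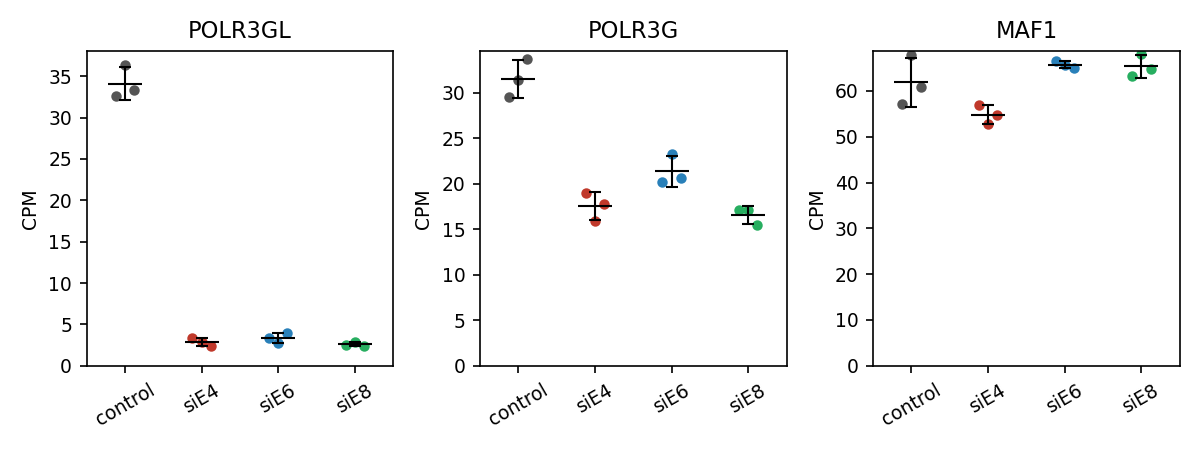
CPM of POLR3GL, POLR3G and MAF1 in each library (points) of the control, siE4, siE6 and siE8 groups, with the group mean and SD as bars. POLR3GL sits at 2.43 to 3.37 CPM in the siE4 libraries against 32.6 to 36.4 CPM in control libraries.

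A short sequence was shared by many genes that were lower with siE4. For each 7-base word the mean log2 fold change of genes holding it in their longest annotated 3′ UTR was set against that of genes without it, over 10944 genes that averaged 5 CPM or more, and 16306 words held by at least 50 genes were ranked. The rank follows this difference divided by its standard error over genes (the ratio), as a description with no test. The lowest ratio was that of ACGTGGA (-10.0), in 692 genes with a difference of -0.191, and the next that of AACGTGG (-9.2), in 652 genes with a difference of -0.189. Some words in few genes had a lower difference but ranked behind, such as GTCGCGT in 59 genes (difference -0.290, ratio -1.4). ACGTGGA and AACGTGG overlap to form AACGTGGA, which lies in exon 2 of all 4 annotated POLR3GL transcripts. In POLR3GL-201 and POLR3GL-202 it lies within the coding sequence. The share of all ranked words found in POLR3GL transcripts was not counted. The POLR3G 3′ UTR holds ACGTGGA, in POLR3G-201 as well as POLR3G-204. POLR3G was lower than control with siE6 and siE8 too, and the part of the word in its fall was not tested. Windows around these matches are shown because they are where the ranked words meet the targeted gene, its paralog and 3 of the genes that fell. They are from GENCODE transcripts of GRCh38, written 5′ to 3′ in the sense of the transcript, with the matching word in capitals.
POLR3GL, exon 2, chr1:145974904-145974926, plus strand: ccagttgaccttcAACGTGGAgg
POLR3G, 3′ UTR, chr5:90512529-90512550, plus strand: gatataatacagcACGTGGAgc
GNB1, 3′ UTR, chr1:1786965-1786987, minus strand: atccaaccgtactAACGTGGAca
ALDH5A1, 3′ UTR, chr6:24537081-24537103, plus strand: gttttgcttttaaAACGTGGAca
SLC7A5, 3′ UTR, chr16:87830862-87830883, minus strand: ctcctgctctgggACGTGGAca

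The sequence of siE4 itself was not used here, so these matches are matches of words, not sites of the siRNA. The words were picked as the lowest by these same fold changes, so lower values in genes that hold them follow from the choice. The shares and medians below describe those genes and are no separate evidence. Genes with the joined word AACGTGGA (190) had a median log2 fold change of -0.21, and 54.2% of them were called lower and 18.4% higher. Among the 9833 genes with neither word the median was 0.018, with 31.6% called lower and 33.7% higher. Of the 298 genes called lower by over 2-fold 69 (23.2%) held either word, as did 2 of the 131 (1.5%) called higher by over 2-fold and 10.15% of all genes ranked. The median 3′ UTR was 3132 bases in genes with either word and 1671 bases in genes with neither. The median share of G and C bases in it was 46.2% and 42.2%. The words ranked next, GCCCTGG and CTGGGCC (ratios -7.7 and -7.5), were in genes where that median was 51.7% and 51.5%. The parts of UTR length and base composition in the difference were not tested. Of the 11 largest falls other than POLR3GL, 2 (GNB1 and HK1) held either word and 9 held neither, among them CHAC1, PSAT1 and NOTCH3. The joined word in HK1 lay in a transcript annotated as subject to nonsense-mediated decay. It was absent from the longest 3′ UTR of the protein-coding HK1 transcripts. Genes that rose could hold a word too, as BUB3 (log2 0.54) and RPL15 (log2 0.56) did, while 0 of the 11 largest rises with an annotated 3′ UTR held one. Both counts out of 11 are small and stand beside the 10.15% of all genes ranked that held either word.

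With the other siRNAs these words did not rank low. Against the shared control libraries, ACGTGGA had a difference of 0.026 with siE6 and -0.007 with siE8. The direct contrasts leave out the control libraries but reuse the siE4 libraries by which the words were picked. Low values there partly follow from that choice and are no separate evidence. The difference of ACGTGGA was -0.218 for siE4 minus siE6, rank 35 from the lowest, and -0.185 for siE4 minus siE8, rank 10. AACGTGG was at -0.18 (rank 191) and -0.173 (rank 33). The lowest words there were GCCCTGG for siE4 minus siE6 and CAGGGCC for siE4 minus siE8. Against the shared controls the lowest words were GAGGAAA with siE6 (difference -0.235) and GCTATCT with siE8 (-0.436). These lay in POLR3GL transcripts too, GAGGAAA in 4 and GCTATCT in 2. The highest ratio with siE4 was that of GACAGTA (11.1), in 1150 genes, with a difference of 0.168, beside 0.070 with siE6 and 0.089 with siE8. GACGTAT, in 188 genes, had a larger difference (0.320) and a lower ratio (8.2).

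**Figure D2:**
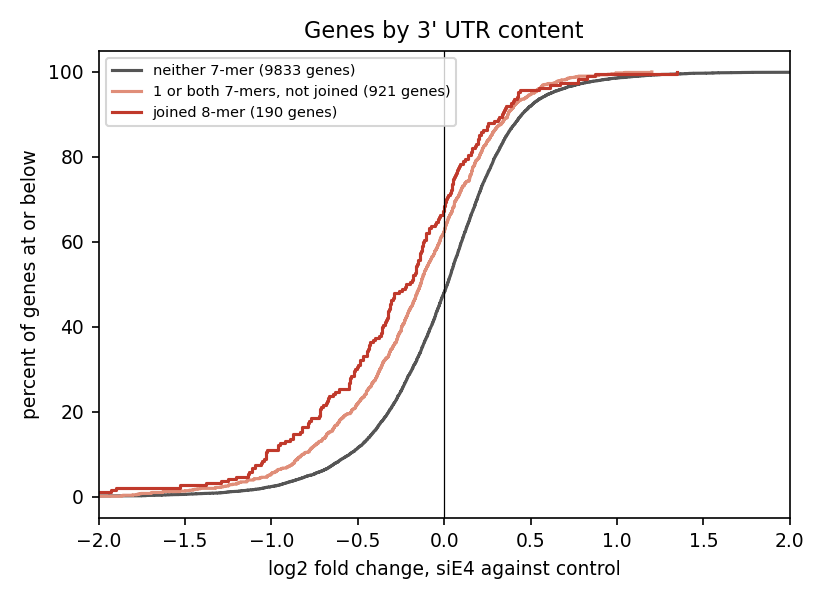
Cumulative percent of genes (y) at or below each log2 fold change of siE4 against control (x) for genes with neither word, with 1 or both words not joined, and with the joined word in the longest 3′ UTR. The curve of the 190 genes with the joined word lies to the left of that of the 9833 genes with neither, with medians of -0.21 and 0.018. The words were picked by these same fold changes.

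Across the transcriptome, 8555 of 15573 genes tested (54.9%) were called with siE4 against control, 4081 (26.2%) higher and 4474 (28.7%) lower. Most differences were small, and 344 genes were higher and 582 lower by over 2-fold. The median of all genes was -0.021 on the log2 scale. The 3 siE4 and 3 control libraries did not overlap for 60.2% of genes. A call by itself therefore marked more than 1 gene in 2, and counts in gene lists are read against these shares.

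**Figure D3:**
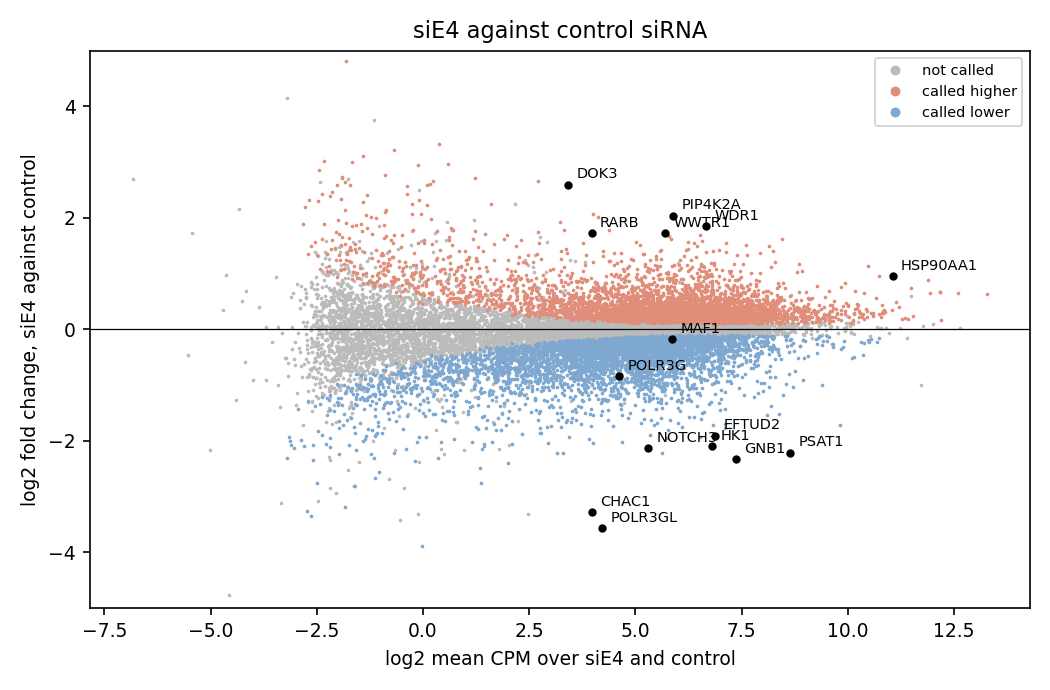
Log2 fold change of siE4 against control (y) by log2 mean CPM over both groups (x), 1 point per gene, coloured by call, with named genes labelled. Points beyond the axis limits are not drawn. POLR3GL and CHAC1 lie lowest among the labelled genes, at -3.56 and -3.28.

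Among the genes with the largest falls were enzymes of amino acid and sugar metabolism. CHAC1, which degrades glutathione, was at 26.5, 31.2 and 27.8 CPM in control and 3.37, 2.73 and 2.74 CPM in siE4 libraries, 9.69-fold lower (log2 -3.28 ± 0.12, adjusted p = 1.13e-12). PSAT1, the transaminase of serine synthesis, fell from 660 ± 42.1 to 142 ± 6.75 CPM (log2 -2.21 ± 0.07). HK1, a hexokinase that starts glycolysis, fell from 182 ± 9.52 to 42.7 ± 1.61 CPM (log2 -2.09 ± 0.051). In each of these the siE4 and control libraries were far apart.

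GNB1, a beta subunit of heterotrimeric G proteins, fell from 285.8, 275.9 and 261.0 CPM to 54.9, 60.4 and 48.9 CPM, 5.01-fold (log2 -2.33 ± 0.068, adjusted p = 4.63e-13). FECH, which inserts iron into haem, was at 13.2, 15.6 and 15.5 CPM and then 2.23, 2.43 and 4.68 CPM (log2 -2.23 ± 0.24, or -1.48 with the offset for average transcript length). NOTCH3, a Notch receptor, went from 63.8 ± 4.77 to 14.6 ± 1.21 CPM (log2 -2.13 ± 0.08). The transcription factors TEF and NR6A1 and the genes SCOC, MOB3B and RAB9B completed the 12 largest falls, POLR3GL included, at log2 -2.22 to -2.04.

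The largest rises included signalling genes. DOK3, an adaptor of immune receptor signalling, was at 3.75, 2.86 and 2.51 CPM in control and 17.02, 17.97 and 20.3 CPM in siE4 libraries, 6.05-fold higher (log2 2.60 ± 0.16, adjusted p = 2.18e-09). PIP4K2A, a phosphoinositide kinase, rose from 23.2 ± 1.24 to 95.3 ± 2.54 CPM (log2 2.04 ± 0.052). WDR1, a cofactor of actin disassembly, rose from 44.0 ± 1.68 to 159 ± 4.59 CPM (log2 1.86 ± 0.044).

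WWTR1, the transcriptional coactivator TAZ, rose from 24.1 ± 1.34 to 79.3 ± 0.566 CPM (log2 1.72 ± 0.048), and RARB, a retinoic acid receptor, from 7.27 ± 0.866 to 24.1 ± 1.01 CPM (log2 1.73 ± 0.085). AMH and SLC45A4 rose by log2 1.92 and 1.78. Of the remaining large rises, TMEFF1 (log2 2.06) and the readthrough gene MSANTD3-TMEFF1 (1.78) overlap, and SMG1P7 (1.75) is a pseudogene with close copies, so the division of reads in these is uncertain. NTAN1 was at 0 CPM in control replicate 2 and at 2.30 and 2.99 CPM in the others, against 9.31, 9.39 and 15.0 CPM with siE4 (log2 2.67 ± 0.85, adjusted p = 0.0263). Its call was lost without siE4 replicate 3 (adjusted p = 0.074), without control replicate 1 (0.052), with the 2 groups fitted alone (0.0898), in a fit over every HEK293T library (0.164) and at a threshold of 0.01.

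Some of these changes were also present with the other siRNAs to POLR3GL, and others were not. WDR1 was at 151 ± 4.92 CPM with siE6 and 157 ± 2.83 CPM with siE8, and siE4 differed from these by log2 0.079 (adjusted p = 0.105) and 0.021 (adjusted p = 0.677). PIP4K2A was also above its control level with siE6 (77.6 ± 3.26 CPM) and siE8 (62.2 ± 2.14 CPM), and siE4 was higher than these by log2 0.30 and 0.62. DOK3 was at 3.04 ± 0.465 CPM with siE6 and 2.05 ± 0.414 CPM with siE8, and siE4 was higher by log2 2.60 and 3.17. Among the largest falls, CHAC1, NR6A1, TEF and NOTCH3 were also below control with siE8 (log2 -1.61, -2.46, -1.31 and -1.15). HK1, SCOC, MOB3B and RAB9B were above it (0.35, 0.30, 0.25 and 0.25). With siE6 each of these falls was present at log2 -2.68 to -0.35. GNB1 was at -0.20 with siE8 and 0.19 with siE6, and PSAT1 and FECH did not pass with siE8. Tested directly, 10028 genes (64.4%) differed between siE4 and siE6, 31.9% of all genes higher and 32.5% lower with siE4. Between siE4 and siE8 9780 (62.8%) differed, 30.5% higher and 32.3% lower. Those higher with siE4 than in each of the control, siE6 and siE8 groups numbered 1592 (10.2%), and those lower than in each 2032 (13%).

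The largest differences of siE4 from all of the other groups were in GNB1, FECH, EFTUD2 and ALDH5A1 on the lower side. EFTUD2, a GTPase of the spliceosome, was at 185 ± 4.39 CPM in control, 49.4 ± 1.29 with siE4, 330 ± 6.26 with siE6 and 285 ± 9.34 with siE8 (siE4 minus siE6 log2 -2.74, adjusted p = 8.36e-17). ALDH5A1, which clears succinate semialdehyde from GABA breakdown, was at 63.9 ± 4.55, 17.1 ± 0.429, 61.9 ± 2.18 and 70.9 ± 2.44 CPM in the same order. GNB1 was at 314 ± 19.1 CPM with siE6 and 239 ± 6.63 CPM with siE8.

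On the higher side stood DOK3, AMH, GPR137C and FZD10. GPR137C rose from 16.3 ± 1.07 to 48.3 ± 1.12 CPM with siE4 and was at 14.1 ± 0.709 and 13.8 ± 0.723 CPM with siE6 and siE8. FZD10, a Wnt receptor, rose from 6.86 ± 0.596 to 20.1 ± 0.253 CPM, against 6.14 ± 0.238 and 3.88 ± 0.351 CPM.

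**Figure D4:**
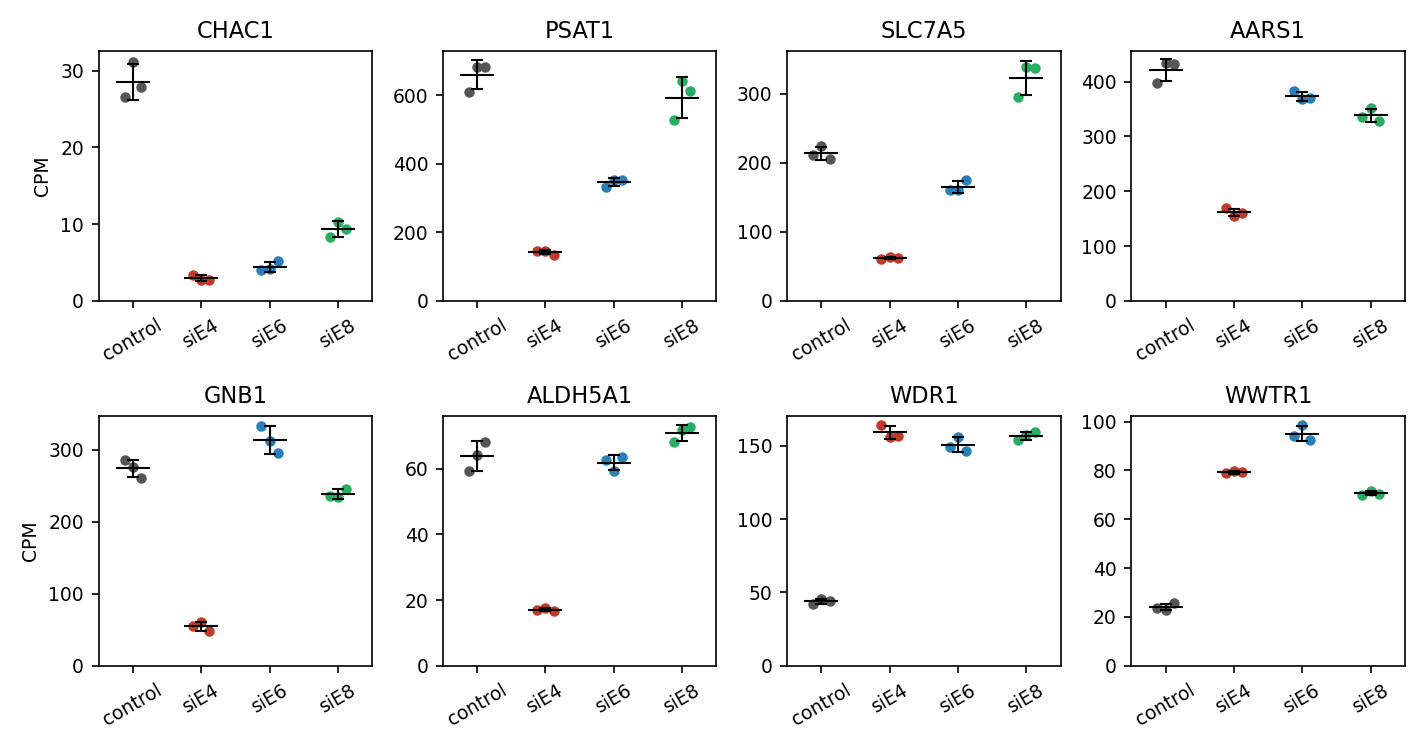
CPM of 8 named genes in each library (points) of the control, siE4, siE6 and siE8 groups, with mean and SD as bars. GNB1 and ALDH5A1 are low in the siE4 libraries alone among the 4 groups, while WDR1 and WWTR1 are high in all 3 groups given a POLR3GL siRNA.

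Targets of ATF4, the transcription factor of the integrated stress response that raises amino acid synthesis and uptake, were mostly lower. Of 32 tested, 26 were called lower and 1, VLDLR, higher, beside 28.7% and 26.2% of all genes. Their median log2 fold change was -0.80, beside -0.021 for all genes. SLC7A5, the large neutral amino acid transporter, was at 211, 224 and 205 CPM in control and 60.5, 64.0 and 62.2 CPM in siE4 libraries (log2 -1.78 ± 0.058, adjusted p = 3.63e-13). SLC38A2, a carrier of small neutral amino acids, fell from 558 ± 19.99 to 273 ± 6.12 CPM (log2 -1.03 ± 0.046). ASNS, asparagine synthetase, fell by 1.52 on the log2 scale and DDIT3, which encodes CHOP, by 1.08. TRIB3, also a known target, was at 0.011 (adjusted p = 0.94) and GDF15 at 0.054 (adjusted p = 0.937).

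These genes differed between the siRNAs. Against the shared controls the median of the ATF4 list was -0.61 with siE6 and 0.00 with siE8. With siE8 CHAC1 (log2 -1.61) and SLC38A2 (-0.61) fell, SLC7A5 rose (0.60), and PSAT1 did not pass (-0.15, edgeR adjusted p = 0.0594). With siE6 these 4 genes were at -2.68, -0.76, -0.37 and -0.93 in the same order. Set directly against siE6, 14 of the 32 members were lower and 6 higher with siE4, beside 32.5% and 31.9% of all genes. Against siE8 26 were lower and 2 higher, beside 32.3% and 30.5% of all genes. SLC7A5 was at 165 ± 8.36 CPM with siE6 and 323 ± 24.5 CPM with siE8, and siE4 was lower than either by log2 -1.41 and -2.38. SLC7A11, the cystine carrier, was in contrast higher with siE4 than with siE6 (log2 0.29, adjusted p = 0.00279).

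Lists that share members with it were lower too. Of 18 amino acid transporters, 12 were called lower and 3 higher, beside 28.7% and 26.2% of all genes. Their median was -0.68, beside -0.422 with siE6 and -0.002 with siE8 against the shared controls. SLC7A1, a carrier of cationic amino acids, fell from 236 ± 3.84 to 130 ± 6.49 CPM (log2 -0.86 ± 0.047), while SLC7A2 rose by log2 0.76. Of 20 enzymes of serine and one-carbon metabolism, 10 fell and 4 rose (median -0.38, beside -0.099 with siE6 and -0.025 with siE8). The mitochondrial folate enzymes MTHFD2 and MTHFD1L fell by 1.10 and 0.94 on the log2 scale, and the cytosolic MTHFD1 rose by 0.27.

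Cytosolic tRNA synthetases, which charge tRNAs with amino acids, had 14 of 23 lower and 4 higher (median -0.23). Of all genes 28.7% were lower and 26.2% higher. AARS1 for alanine was at 398, 434 and 433 CPM in control and 169, 156 and 160 CPM in siE4 libraries (log2 -1.39 ± 0.047, adjusted p = 5.48e-13), with no overlap. YARS1 fell from 381 ± 22.8 to 186 ± 3.51 CPM and CARS1 from 73.1 ± 0.836 to 44.9 ± 0.983 CPM. RARS1, in contrast, rose by log2 0.35. Against siE8 17 of the 23 were lower with siE4 and 0 higher at an edgeR adjusted p under 0.05, beside 32.3% and 30.5% of all genes. Against siE6 11 were lower and 6 higher, beside 32.5% and 31.9% of all genes. Against the shared controls the list median was -0.195 with siE6, near that with siE4, and 0.122 with siE8.

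Glycolytic and hypoxia-induced genes had 18 of 29 lower and 5 higher, beside 28.7% and 26.2% of all genes. Their median was -0.32, beside 0.208 with siE6 and -0.149 with siE8 against the shared controls. Besides HK1, the fall of HK2 was 1.44 on the log2 scale, and PFKL, the liver-type phosphofructokinase, fell from 98.8 ± 5.66 to 50.6 ± 3.84 CPM (log2 -0.96 ± 0.059). KDM3A, a histone demethylase induced by hypoxia, rose from 69.0 ± 3.35 to 130 ± 5.64 CPM (log2 0.91 ± 0.06). Interferon-induced and RNA-sensing genes had 16 of 31 lower and 2 higher, and 9 lower when genes needed a mean of 5 CPM. Their median was -0.47, beside -0.033 with siE6 and -0.14 with siE8. IFIH1, the sensor MDA5, was at 6.96, 5.63 and 8.24 CPM in control and 2.11, 2.81 and 2.76 CPM in siE4 libraries (log2 -1.44 ± 0.14). USP18, which removes ISG15, fell from 20.8 ± 0.259 to 11.2 ± 0.113 CPM.

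**Figure D5:**
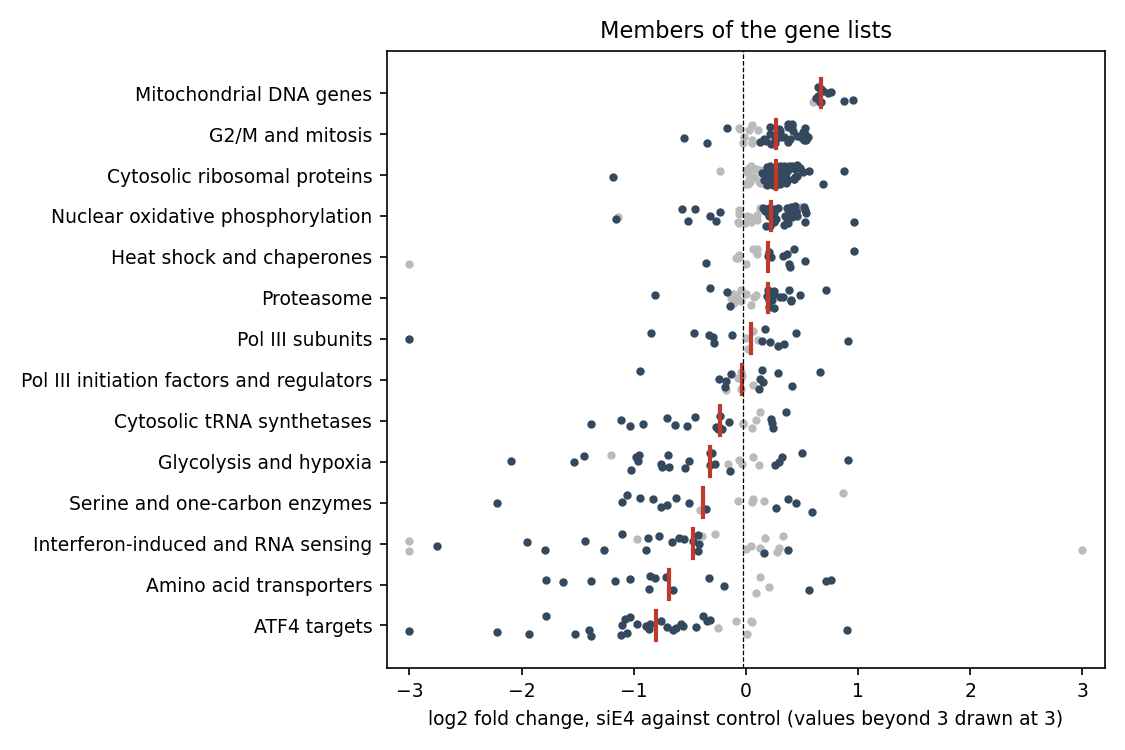
Log2 fold change of siE4 against control (x) of each tested member (points, dark where called) of 14 gene lists (y), with list medians as red bars and the median of all genes as a dashed line. The ATF4 targets have a median of -0.80 and the mitochondrial DNA genes of 0.67.

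On the higher side, ribosomal proteins had 59 of 77 called higher and 1 lower (median 0.27), beside 26.2% and 28.7% of all genes. Against the shared controls their median was 0.283 with siE6 and -0.013 with siE8. RPL34 rose from 205 ± 10.6 to 330 ± 21.3 CPM (log2 0.69 ± 0.052) and RPL15 by log2 0.56, or 0.29 with the length offset. RPL36 was the member that fell, from 461.6, 536.7 and 478.0 to 231.2, 212.6 and 204.3 CPM (log2 -1.19 ± 0.062, adjusted p = 7.80e-11), and it was at 658 ± 19.4 CPM with siE6 and 529 ± 30.4 CPM with siE8. Genes of G2/M and mitosis had 28 of 40 higher and 3 lower (median 0.27, beside -0.083 with siE6 and 0.302 with siE8). BUB1, a kinase of the spindle checkpoint, rose from 189 ± 9.39 to 272 ± 5.47 CPM, and PRC1, a crosslinker of spindle microtubules, fell from 277 ± 9.61 to 190 ± 2.71 CPM.

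Nuclear genes of oxidative phosphorylation had 36 of 56 higher and 7 lower, beside 26.2% and 28.7% of all genes. Their median was 0.23, beside 0.153 with siE6 and 0.058 with siE8. COX6C, a subunit of complex IV, rose by log2 0.96 ± 0.052, and the complex I subunit NDUFB10 fell by 1.15 on the log2 scale. Heat shock genes and chaperones had 10 of 19 higher and 1 lower (median 0.20, beside 0.322 with siE6 and 0.271 with siE8). They were led by HSP90AA1, which rose from 1443 ± 73.7 to 2808 ± 92.9 CPM (log2 0.96 ± 0.058). HSP90AA1 was at 3074 ± 131 CPM with siE6 and 3469 ± 179.9 CPM with siE8. Of 32 proteasome genes, 17 rose and 4 fell (median 0.19, beside 0.363 with siE6 and 0.179 with siE8). With all HEK293T libraries in the fit 7 fell. Among those that fell was NFE2L1, a transcription factor for proteasome genes, whose level fell by 0.81 on the log2 scale.

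Of the 13 protein-coding genes of mitochondrial DNA, 12 were called higher, beside 26.2% of all genes. Their median was 0.67, beside 0.533 with siE6 and 0.054 with siE8. Set directly against siE6, 0 of these genes were called, beside 64.4% of all genes. Against siE8 8 were higher with siE4, beside 30.5% of all genes. MT-ND1 was at 1445, 807 and 1231 CPM in control and 2529, 2033 and 2180 CPM in siE4 libraries (log2 0.95 ± 0.23, adjusted p = 0.00682). The control libraries varied more than the siE4 libraries. Reads on these genes were 2.75% to 4.99% of control libraries and 5.48% to 6.20% of siE4 libraries (two-sided exact permutation p = 0.1, the smallest that 20 arrangements give). The number called fell to 4 without siE4 replicate 1 or control replicate 3 and to 6 without siE4 replicate 2, siE4 replicate 3 or control replicate 2. It was 6 with no filter on low counts and 5 when the 2 groups were fitted alone. The part of RNA quality or depth in it was not tested.

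Pol III itself showed no common direction. Of its 18 subunits, 7 were called higher and 7 lower, beside 26.2% and 28.7% of all genes. Their median was 0.043, and POLR3GL and POLR3G were among the lower. POLR3F, which encodes RPC6 and sits beside RPC7 in the same subcomplex, was at 17.8, 18.2 and 19.0 CPM in control and 35.4, 36.6 and 31.8 CPM in siE4 libraries (log2 0.91 ± 0.065, adjusted p = 3.93e-09). It was at 37.1 ± 1.60 and 35.7 ± 2.49 CPM with siE6 and siE8, from which siE4 did not differ past the threshold (adjusted p = 0.156 and 0.556). POLR3C, the third member of that subcomplex, was called higher (log2 0.34 ± 0.11, adjusted p = 0.0167) but was at -0.017 once average transcript length was taken into account. POLR3D fell by 0.33 on the log2 scale, and POLR3E and POLR2E by 0.28 and 0.29. With the length offset POLR2E fell by 0.61.

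CRCP, POLR2L and POLR2K rose by log2 0.29, 0.45 and 0.22. The large subunits POLR3A (log2 -0.12, adjusted p = 0.0319) and POLR3B (log2 0.14, adjusted p = 0.0271), and POLR2F (log2 0.17, adjusted p = 0.0316), were near the threshold, and each was not called under several alternatives. POLR3K, POLR2H, POLR1C and POLR1D did not pass (log2 0.002 to 0.11). Without control replicate 1 the number called higher was 4. Of 18 initiation factors and regulators, 7 were higher and 5 lower (median -0.035), beside 26.2% and 28.7% of all genes. The number of these factors called lower was 3 without siE4 replicate 2 or control replicate 2. TBP, the TATA-binding protein, rose by log2 0.66, and SNAPC2, a subunit of the complex at small nuclear RNA promoters, fell by 0.94 on the log2 scale.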

How the data were processed

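Polyadenylated RNA from 42 libraries was quantified by the authors with Salmon against hg38 after demultiplexing with bcl2fastq 2.20 and trimming with Trim Galore, and DESeq2 was used, per the submitters' processing notes. The table deposited by the authors lists 194142 transcripts with, per the file headers, a TPM value and an estimated count, often not a whole number. The authors' annotation is not given in the sources used here. Here, 158359 transcripts (81.6%) were matched to GENCODE 29 (GRCh38), and these estimated counts were added up within each gene, then rounded. Unmatched transcripts held 8.06% to 8.59% of reads in the 12 libraries fitted and were left out. TPM served only to derive average transcript length for the length offset.

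The 12 libraries of control siRNA, siE4, siE6 and siE8 were fitted together in R 4.3.3 with edgeR 4.0.16, using filterByExpr, TMM and robust quasi-likelihood testing. Adjustment followed Benjamini and Hochberg over the 15573 genes tested, with calls at an adjusted p under 0.05. Errors of log2 fold changes are SE from the F statistic, and those of CPM are SD. Replicates were 3 per group. The labels do not name separate cultures, so the spread that p-values are set against is that of these samples and may be technical. Gene lists (35) were described by counts and medians with no test. The named genes are POLR3GL, POLR3G and MAF1, the 12 largest rises and falls (called, mean of at least 5 CPM, libraries not overlapping, standard symbol, no replicate at 0 reads beside one of at least 5 CPM), the called members of lowest adjusted p (at most 4 each) in 12 lists, 4 genes per direction beyond the control, siE6 and siE8, and the Pol III subunits. Some genes that this rule names are not reported here. Other list members named were chosen after their values were seen. The comparison, its members and the lists were chosen with earlier results of these data known.

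The longest annotated 3′ UTR of each gene (at least 50 bases) was taken over every transcript with a stop codon, also those annotated as subject to nonsense-mediated decay. A version with protein-coding transcripts only, and the ranking in the other contrasts, were added after the 7-base words had been seen. The edgeR test, not the word ranking or the lists, was tried on simulated data in which far fewer genes changed than were called here. Alternatives were DESeq2 1.42.0, its size factors, other filters, a threshold of 0.01, a replicate block, other sets of libraries, a length offset and each library left out.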

Additional observations from a re-analysis of the deposited data

How the results depend on the processing

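The counts of genes called in the 3 contrasts stayed within 1.5 times their values under all 16 alternatives. For siE4 against control, DESeq2 called 8230, leaving out 1 library gave 7759 to 8152, and the share of calls that were higher ran from 46.9% to 50.7%. Of 88 named genes, 78 kept their direction and call throughout. Deviations from the group means did not correlate positively between same-numbered siE4 and control libraries (-0.211, -0.064 and -0.013). Such deviations sum to 0 within each group of 3, so these values cannot show whether a number marks a shared culture. With the replicate block 8458 genes were called.

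Among reversed signs, POLR3K and POLR2H were near 0 as reported. POLR3K was at -0.008 with a minimum mean of 5 CPM, 0.000 with the length offset, and -0.025 to 0.041 with 1 library left out. POLR2H was at -0.025 to 0.068 with 1 library left out. POLR3C, called higher at 0.34, was at -0.017 with the length offset. With 1 library left out the median of Pol III subunits was -0.001 to 0.086, below 0 without siE4 replicate 1, and that of initiation factors -0.057 to 0.025, above 0 without siE4 replicate 3 or control replicate 1.

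Medians of other lists moved without a change of sign. With a minimum mean of 5 CPM they were -0.89 for ATF4 targets and -0.22 for serine and one-carbon enzymes. With the length offset they were -0.46 for glycolysis and -0.19 for tRNA synthetases. For interferon-induced genes the median was -0.43 with the 2 groups alone and -0.51 with all HEK293T libraries. Leaving out 1 library gave -0.84 to -0.75 for ATF4 targets, 0.47 to 0.90 for mitochondrial DNA genes, -0.54 to -0.43 for interferon-induced genes, as high as -0.28 for serine and one-carbon enzymes, and -0.26 to -0.20 for tRNA synthetases. The cause was not tested.

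The word ACGTGGA had a difference of -0.167 with a minimum mean of 1 CPM, where its rank was again the lowest. With protein-coding transcripts only, an alternative chosen after seeing the data, AACGTGG ranked lowest by the ratio of difference to standard error and ACGTGGA next, with differences of -0.176 and -0.177. The longest 3′ UTRs of HK1, PFKL, NARS1 and DNAJB6, where a match was found, belong to transcripts annotated as subject to nonsense-mediated decay. The match located in each (AACGTGGA, or AACGTGG in DNAJB6) was absent from the longest 3′ UTR of its protein-coding transcripts. Depth limits genes of few reads, as POLR3GL-201 with siE4 shows.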
